A study of Homo sapiens with 6 samples.

Results

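The AP-1 and BATF family was followed in the open chromatin of GM12878, a human B-lymphoblastoid cell line immortalised with Epstein-Barr virus. The members were 10 genes chosen by name: BATF, BATF2, BATF3, JUN, JUNB, JUND, FOS, FOSB, FOSL1 and FOSL2. A peak was counted for a member where it overlapped the gene body or the 10 kb on either side of it (hg19, GENCODE version 44 lifted to this build). After peaks of all libraries that overlapped or adjoined were merged, 26 of the 56447 accessible regions of the series belonged to these windows. The rule uses gene names and positions and no measured value.

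AP-1 is a dimer of basic leucine zipper (bZIP) proteins. JUN proteins pair with each other or with FOS proteins and bind the letters TGANTCA, where N is usually C or G. When a member of the ATF and CREB family takes part, they bind the related cyclic AMP response element (CRE) TGACGTCA. BATF proteins lack the activation domain of FOS, pair with JUN proteins, and in lymphocytes bind DNA together with IRF4 or IRF8. In B cells infected with Epstein-Barr virus, the viral membrane protein LMP1 signals to NF-kB and to the JNK kinase upstream of JUN. Accessible DNA at a gene does not show that the gene is transcribed.

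The series held 6 bulk ATAC-seq libraries, an assay in which the transposase Tn5 inserts sequencing adapters into open chromatin. All cells were GM12878 fixed with 1% paraformaldehyde, and the libraries differed in how the crosslinks were reversed after transposition. In the 2 old-buffer libraries the solution contained SDS and the DNA was purified, in the 2 purified new-buffer libraries it contained no SDS and the DNA was purified, and in the 2 unpurified new-buffer libraries it contained no SDS and PCR followed directly in the same mixture. The labels give a lysis buffer with 0.05% Igepal CA-630, 30 min of transposition at 37 °C, a stop with 40 mM EDTA and reversal at 65 °C overnight for all 6 libraries, and neither labels nor methods say whether replicates came from separate cultures, so the spread between them may be technical. The methods, however, describe these lysis and stop steps for the unpurified workflow and not for the old buffer, so other differences between them cannot be told apart from the buffer. The comparison asks whether a buffer that does not inhibit PCR, and leaving out purification, change what is detected.

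The 6 lists held between 30136 and 38023 peaks. Read totals are not part of the lists, but the reads at each summit and the local background could be solved exactly for each peak from its fold enrichment and p value. The median summit held 20 to 22 reads, and the lowest background, which scales with depth, differed by 1.24 times between the deepest and the shallowest library. The cell type was checked on promoters, taken as the 1 kb on each side of an annotated start of a protein-coding transcript. Each of 5 B cell markers had a promoter peak in at least 1 library, but only MS4A1, the gene of CD20, had it in all 6. CD79A was called in 4 libraries, CD22 in 3, and CD79B and PAX5 each in 1, which was the same library, replicate 1 of the purified new buffer. None of the 4 T cell, 3 erythroid and 3 epithelial markers had a promoter peak, and of 4 myeloid markers CD14 had it, in 4 libraries.

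Of the 26 regions, 12 lay at promoters of the members themselves, 4 at promoters of neighbouring genes and 10 were distal. All 6 libraries called 10 of the 26 regions (38.5%), against 35.5% of all 56447 regions. A single library called 4 regions (15.4%), against 27.4% of all regions. Among the promoter regions of members, 5 of 12 were called in all 6 libraries (41.7%), while over all promoter regions of the series this share was 64.2%. Among the distal regions it was 3 of 10, against 27.0% of all distal regions. A region called in 1 to 5 libraries held at most 43 reads at its summit, and those called in all 6 libraries held between 11 and 83.

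**Figure D1:**
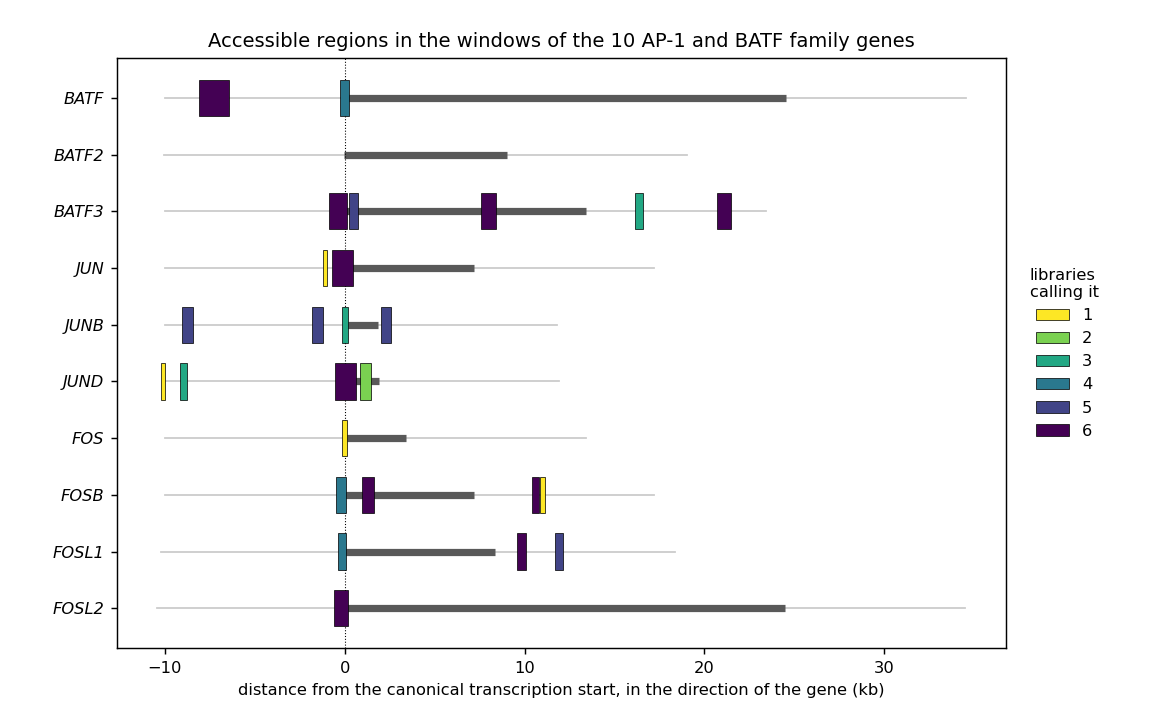
Position of the 26 accessible regions in the windows of the 10 member genes. The x axis gives the distance from the canonical transcription start in kb, in the direction of transcription; thick bars are gene bodies, thin lines are the windows of 10 kb on each side, and boxes are regions coloured by the number of libraries that called them. Each of the 9 genes with regions has at least 1 at a start, BATF3 has 5 regions and BATF2 has none.

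Counted by gene, 5 of 10 members had a promoter peak in all 6 libraries, against 45.6% of 19807 protein-coding genes. These were BATF3, JUN, JUND, FOSB and FOSL2. The promoters of BATF and FOSL1 were called in 4 libraries each, that of JUNB in 3 and that of FOS in 1. BATF2 was the only member without a promoter peak in any library, and 39.3% of protein-coding genes had none either. Per library, 6 to 9 member promoters were called, and over all protein-coding genes this share was between 51.5% and 55.1%. The unpurified new-buffer libraries called 9 and 8 member promoters, the purified ones 7 and 6, and the old-buffer libraries 6 and 6. Over all protein-coding genes the shares were 54.8% and 54.5%, 55.1% and 51.9%, and 53.2% and 51.5%, in the same order.

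In the BATF subfamily the strongest region of BATF and of BATF3 was distal, and BATF2 had no region. BATF, which with JUN proteins and IRF4 takes part in class switching of B cells, lies on chromosome 14 from 75988798 to 76013336 on the plus strand. Its distal region, chr14:75980737-75982362, had its summit in intergenic DNA 7340 bp upstream of the start and was called in all 6 libraries. The strongest summit of each library in this region held 34 and 28 reads with the old buffer, 34 and 22 with the purified new buffer, and 30 and 29 with the unpurified new buffer. These summits lay up to 857 bp apart. The 300 bases around the summit 7340 bp upstream, chr14:75981322-75981621 on the plus strand (hg19), are shown because this was the strongest region of BATF. The summits of some libraries lie outside these bases. None of the 7 motifs that were searched in all regions occurs in them, so no letters are in capitals.
BATF distal region: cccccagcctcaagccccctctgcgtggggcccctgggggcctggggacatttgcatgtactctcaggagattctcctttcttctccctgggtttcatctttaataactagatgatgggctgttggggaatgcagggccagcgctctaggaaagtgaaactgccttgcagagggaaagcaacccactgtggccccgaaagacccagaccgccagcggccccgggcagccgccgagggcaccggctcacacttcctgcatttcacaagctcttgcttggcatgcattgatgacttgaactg

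The promoter region of BATF, chr14:75988555-75989047, had its summit 91 bp upstream of the start and was weaker than the distal region in every library that called it. In the old buffer it was called in replicate 2 alone, with 16 reads, in the purified new buffer in replicate 1 alone, with 14 reads, and in both unpurified libraries, with 16 and 15 reads. Its −log10 q was between 4.11 and 6.58, whereas that of the distal region was between 8.22 and 16.4. Ranked by −log10 q within a library, from 0% for the strongest peak to 100% for the weakest, the promoter stood at 69.1% to 95.0% and the distal region at 25.7% to 56.0%.

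BATF3, which is known for its role in dendritic cell development, lies on chromosome 1 from 212859759 to 212873182 on the minus strand and had 5 regions, more than any other member. The strongest was inside the gene, an intronic region (chr1:212864771-212865578) whose summit lay 7889 bp downstream of the start. It held 42 and 64 reads with the old buffer, 60 and 43 with the purified new buffer, and 58 and 54 with the unpurified new buffer, and the ranges of the protocols overlapped. It ranked in the strongest 0.939% to 11.2% of peaks. The sequence on the coding strand (chr1:212865143-212865442, hg19) is printed because this region was the strongest distal region of the family, with a match to the NF-kB consensus in capitals.
BATF3 intronic region: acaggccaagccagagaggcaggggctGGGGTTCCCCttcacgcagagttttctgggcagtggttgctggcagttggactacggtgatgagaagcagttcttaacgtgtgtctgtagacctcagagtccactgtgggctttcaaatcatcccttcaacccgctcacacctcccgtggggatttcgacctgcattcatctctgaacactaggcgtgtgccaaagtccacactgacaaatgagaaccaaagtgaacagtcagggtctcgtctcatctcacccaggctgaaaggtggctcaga

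The second distal region of BATF3 in strength lay beyond the 3′ end of the gene, 21084 bp from the start (chr1:212851730-212852505), and was called in all 6 libraries with 39 to 48 reads. The promoter region of BATF3 (chr1:212873068-212874053, summit 516 bp upstream) was also called in all 6 libraries, but with fewer reads. These were 33 and 24 with the old buffer, 36 and 29 with the purified and 37 and 27 with the unpurified new buffer, and replicate 1 was the higher library in all 3 protocols. In each of the 6 libraries the −log10 q of the intronic region, 25.1 to 49.3, was above that of the promoter, 7.15 to 14.7. A weaker region in the first part of the gene (summit 479 bp inside) was called in 5 libraries with 18 to 26 reads, and a distal region 16419 bp from the start in 3 libraries with 21 to 30 reads.

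BATF2, an interferon-inducible member, lies on chromosome 11 from 64755417 to 64764490 on the minus strand. No peak of any library fell into its window of 29074 bp. Of all protein-coding genes, 21.0% had no covered base in their window in any library.

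Among the JUN genes, JUN and JUND had promoters called in all 6 libraries, and JUNB did not. JUN, the partner of most FOS and BATF proteins, lies on chromosome 1 from 59242517 to 59249720 on the minus strand. Its promoter region (chr1:59249275-59250448, summit 144 bp upstream, also overlapping the noncoding genes LINC01135 and ENSG00000290013) was the strongest promoter of the family. The summit held 83 and 50 reads with the old buffer, 69 and 58 with the purified new buffer, and 69 and 68 with the unpurified new buffer. The old-buffer replicates thus enclosed all other libraries. The region ranked in the strongest 1.38% to 8.90% of peaks, and JUN had a higher mean promoter −log10 q than 92.7% of protein-coding genes. Its only other region, a distal one 1087 bp upstream in an exon of LINC01135, was called in replicate 2 of the old buffer alone, with 23 reads.

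JUND, the member known for steady expression in resting cells, lies on chromosome 19 from 18390504 to 18392432 on the minus strand. Its promoter region (chr19:18391816-18392971, summit 102 bp upstream, also overlapping MIR3188) held 50 and 35 reads with the old buffer, 48 and 40 with the purified new buffer, and 51 and 41 with the unpurified new buffer. The 3 protocols overlapped, and replicate 1 was higher than replicate 2 in each. It ranked at 18.7% to 31.9% of peaks. A region in the 3′ UTR, near an alternative start, was called in 2 libraries with 28 and 35 reads. Distal regions 8989 and 10049 bp upstream were called in 3 libraries and in 1. The former held 15 reads in replicate 2 of the old buffer and 17 and 13 reads in the unpurified libraries, and the latter 17 reads in replicate 2 of the purified new buffer.

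The upstream sequences of JUN and JUND are set side by side because each carries an 8-letter element of the CRE type close to the start. The sequence of JUN is chr1:59249721-59250012 and that of JUND is chr19:18392433-18392683, both on the minus strand (hg19) and so in the direction of the gene. Capitals mark TGACATCA, the variant bound by JUN and ATF2 dimers in textbook accounts of this promoter, in JUN, and the CRE TGACGTCA in JUND. The nearest base of these elements lies 60 bp upstream of the start of JUN and 193 bp upstream of the start of JUND.
JUN promoter: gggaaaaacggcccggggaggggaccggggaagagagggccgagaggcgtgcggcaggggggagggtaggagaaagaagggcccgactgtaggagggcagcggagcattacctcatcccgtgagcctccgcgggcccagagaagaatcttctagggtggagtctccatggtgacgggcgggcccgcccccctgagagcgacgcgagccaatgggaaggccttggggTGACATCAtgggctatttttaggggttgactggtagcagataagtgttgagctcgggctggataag
JUND promoter: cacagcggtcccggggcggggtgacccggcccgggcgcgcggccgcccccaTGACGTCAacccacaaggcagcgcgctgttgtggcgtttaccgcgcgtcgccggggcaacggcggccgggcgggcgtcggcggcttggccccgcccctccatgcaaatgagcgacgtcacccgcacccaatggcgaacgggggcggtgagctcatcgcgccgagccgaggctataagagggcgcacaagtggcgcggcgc

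JUNB, a JUN protein of high level in several lymphomas, lies on chromosome 19 from 12902300 to 12904129 on the plus strand and had 4 regions, of which none was called in all 6 libraries. The promoter region (chr19:12902160-12902475, summit 11 bp inside the 5′ UTR) was called in replicate 2 of the purified new buffer with 28 reads and in both unpurified libraries with 31 and 30 reads. Neither old-buffer library called it. The strongest distal region, chr19:12904303-12904850, lay in an intron of the neighbour HOOK2, 2173 bp downstream of the start. It held 39 and 28 reads with the old buffer, 33 reads in replicate 1 of the purified new buffer, no call in replicate 2, and 34 and 43 reads in the unpurified libraries. The other regions lay in introns of HOOK2 1576 and 8839 bp upstream of the start, and each was called in 5 libraries, with 27 to 42 and 15 to 25 reads.

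In the 3 libraries that called the JUNB promoter, its rank by −log10 q was low and its local background high, while its summit reads were not few. The reads there in the libraries without a call are not known. By reads at the summit the promoter stood at 28.5% to 29.8% of the peaks of the libraries that called it, but by −log10 q at 80.2% to 88.0%. The background at its summit was 8.74 to 9.66 reads, against a median over all peaks of 2.50 to 3.06. The fold enrichment there was between 2.91 and 3.07, against medians of 5.59 to 5.84. The backgrounds at the distal regions 1576 bp upstream and 2173 bp downstream were likewise 6.74 to 9.70 and 6.86 to 9.60 reads, and the part of neighbouring accessible DNA in this background was not tested. By contrast, the summit of the BATF promoter held 14 to 16 reads over a background of 2.32 to 3.18.
The 300 bases around the summit of the downstream region (chr19:12904323-12904622, plus strand, hg19) are printed for their 4 matches to the NF-kB consensus, in capitals.
JUNB distal region: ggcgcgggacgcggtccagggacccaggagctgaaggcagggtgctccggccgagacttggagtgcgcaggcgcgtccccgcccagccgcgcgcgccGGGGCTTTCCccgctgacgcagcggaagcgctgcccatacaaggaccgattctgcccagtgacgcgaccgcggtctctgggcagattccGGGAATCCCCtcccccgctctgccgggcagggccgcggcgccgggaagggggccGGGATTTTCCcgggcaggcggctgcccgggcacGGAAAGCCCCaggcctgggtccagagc

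Among the FOS genes, FOSB and FOSL2 had promoters called in all 6 libraries, FOSL1 in 4 and FOS in 1. FOS, the immediate early gene that serum and antigen receptor signals induce through SRF, lies on chromosome 14 from 75745529 to 75748933 on the plus strand. The only peak in its window was at the start (chr14:75745390-75745637, summit 20 bp inside the 5′ UTR), in replicate 1 of the unpurified new buffer. It held 15 reads over a background of 1.86, with a −log10 q of 7.12 and a rank of 67.6%. The other 5 libraries called no peak in the window, which says that no summit passed the threshold and not that the promoter was closed.

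FOSB, also an immediate early gene, lies on chromosome 19 from 45971253 to 45978437 on the plus strand. Its strongest promoter region, chr19:45972243-45972908, was at an alternative start with its summit 1299 bp inside the gene, where the DNA is also annotated as an intron of ERCC1. It held 26 and 24 reads with the old buffer, 29 and 26 with the purified new buffer, and 18 and 29 with the unpurified new buffer, and the unpurified replicates enclosed the other libraries. The region at the canonical start (summit 317 bp upstream) was called in 4 libraries, with 27 reads in replicate 1 of the old buffer, 22 in replicate 2 of the purified new buffer, and 22 in each unpurified library. Further regions lay at the promoter of ERCC1, which encodes a DNA repair endonuclease subunit. The stronger was called in all 6 libraries with 11 to 19 reads, and the weaker in 1.

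FOSL1, the gene of FRA-1, lies on chromosome 11 from 65659520 to 65668044 on the minus strand. Its promoter region (chr11:65667788-65668211, summit 89 bp upstream of the canonical start and in the 5′ UTR of a longer transcript) held 21 reads in replicate 1 of the old buffer, 14 in replicate 1 of the purified new buffer, and 19 and 15 in the unpurified libraries. Replicate 2 of the old buffer and of the purified new buffer had no peak there. The window also held the promoters of CCDC85B, called in all 6 libraries with 13 to 30 reads, and of FIBP, called in 5 with 17 to 35 reads. FOSL2, the gene of FRA-2, lies on chromosome 2 from 28615315 to 28640184 on the plus strand and had 1 region in a window of 44870 bp. This promoter region (chr2:28615118-28615887, summit 187 bp upstream, in an intron of a longer FOSL2 transcript and of FOSL2-AS1) held 30 and 30 reads with the old buffer, 29 and 19 with the purified new buffer, and 37 and 30 with the unpurified new buffer. Replicate 2 of the purified new buffer was the lowest library, and it ranked the region at 66.1% while the others ranked it at 19.8% to 36.6%.

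**Figure D2:**
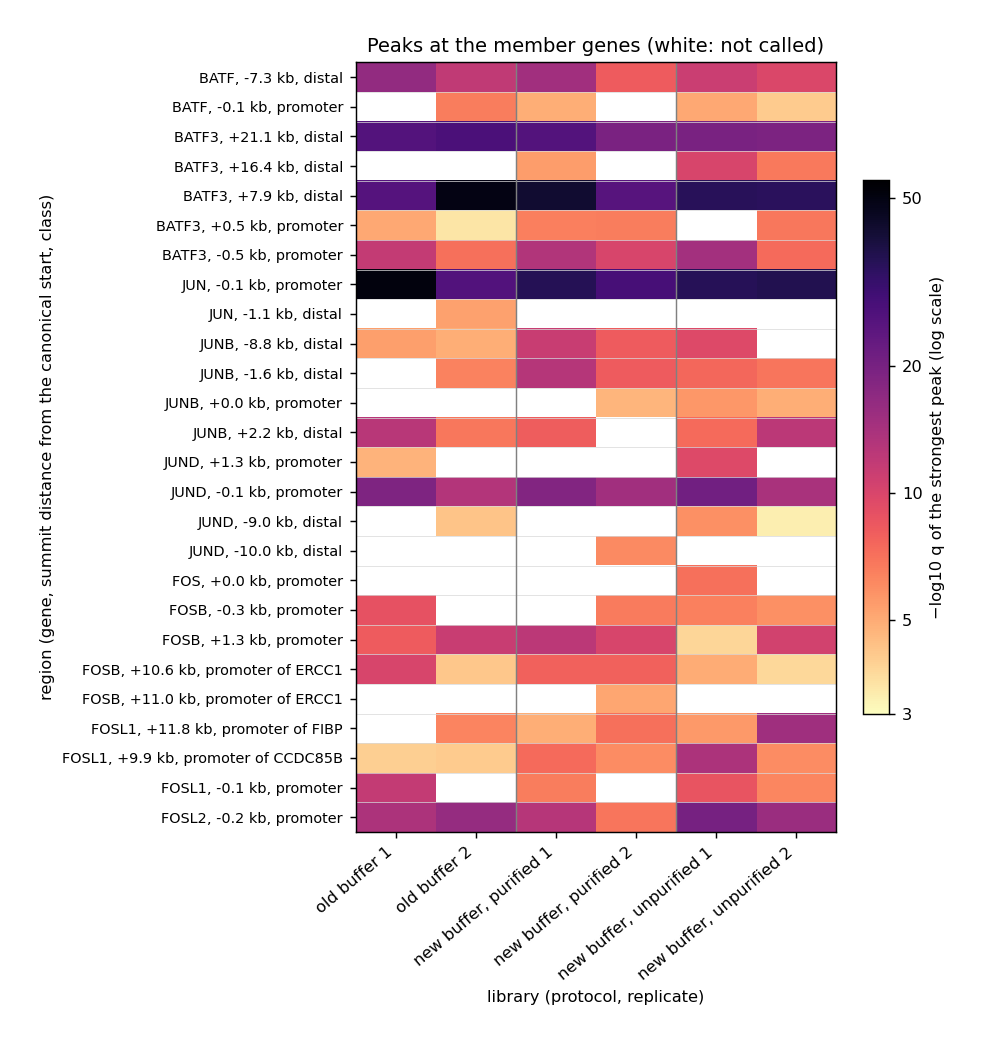
Strength of the peaks in the 26 regions (rows, named by gene and by the distance of the summit from the canonical start) in the 6 libraries (columns). Colour gives the −log10 q of the strongest peak on a log scale and white cells were not called; the promoter of JUN and the intronic region of BATF3 are dark in all 6 columns, and the rows with white cells are mostly pale.

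Ordered by mean promoter −log10 q over the 6 libraries, with 0 where no peak was called, JUN came first with 35.4 ± 8.73 (SD, n = 6) and its lowest library, 26.1, lay above the highest of JUND, 20.9. JUND followed with 16.7 ± 3.13 (SD, n = 6), FOSL2 with 14.2 ± 4.39, BATF3 with 10.7 ± 3.08 and FOSB with 9.92 ± 2.04. These neighbours overlapped: JUND was above FOSL2 in 4 of 6 libraries, FOSL2 above BATF3 in 4, and BATF3 above FOSB in 3. FOSL1 (5.53 ± 4.70), BATF (3.45 ± 2.79), JUNB (2.54 ± 2.80) and FOS (1.19 ± 2.91) also overlapped with the next in order. The median over protein-coding genes was 5.34, which FOSL1 and the 5 members above it exceeded. Over the members called in a library, the median rank of the promoter was 43.99% on average over the 6 libraries, with members not called left out.

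The covered length of a window is the bases in peaks. As a percentage of the window, it gave another order. Peaks covered on average 7.62% of the window of BATF3, more than in 99.6% of protein-coding genes. JUND (5.67%), JUNB (4.79%), FOSB (3.62%), JUN (3.37%) and BATF (3.27%) followed, each above at least 90.4% of protein-coding genes. FOSL1 had 2.61%, FOSL2 1.31% and FOS 0.177%, and the median over protein-coding genes was 0.902%. JUNB was thus among the lowest of the members by its promoter peak and above 96.6% of protein-coding genes by the percentage covered. This percentage also depends on the length of the window, which was 21830 bp for JUNB and 44539 bp for BATF. Peaks at promoters of neighbouring genes count in it too. In bases, the mean of BATF was 1456 bp, above JUND with 1243 bp and JUNB with 1046 bp.

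The regions were searched on both strands for 7 motifs in the 300 bases around the strongest summit. The AP-1 letters TGANTCA occurred in 3 of 26 regions (11.5%), against 18.5% of all regions, 5.13% of promoter regions and 22.4% of distal regions. These were the distal region of JUND 8989 bp upstream, the weaker region at the ERCC1 promoter and the promoter of FOSL1. The match in JUND was TGAATCA, those at ERCC1 were TGAATCA and TGATTCA, and that in FOSL1 was TGACTCA, which covers the canonical start. Only the last has the C or G of the usual AP-1 consensus in the middle. The CRE TGACGTCA occurred in 2 regions, against 0.958% of all and 3.10% of promoter regions. These were the promoter of JUND and the FOSB region at the canonical start, called in 4 libraries. TGACATCA occurred in the promoter of JUN alone, against 1.61% of all regions. The composites of AP-1 and IRF letters contain the AP-1 letters and were searched in the forms TTTC, any 4 letters, TGANTCA and GAAA directly before TGANTCA. Neither occurred in a member region, and they occurred in 0.732% and 0.861% of all regions.

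A CArG box, the element that SRF binds, occurred in 2 regions, against 1.998% of all regions. They were the FOSB region at the canonical start and the JUNB region 1576 bp upstream. The NF-kB consensus occurred in 7 regions (26.9%), against 13.9% of all regions, 15.4% of promoter regions and 13.5% of distal regions. These were the intronic region of BATF3, the distal region of JUN and the JUNB regions 8839 bp upstream and 2173 bp downstream. The others were the 3′ UTR region of JUND, the FOSB region at the canonical start and the promoter of FIBP. Base composition differed as well. The GC content of the member promoters had a median of 70.5%, against 67.0% for all promoter regions, and that of the member distal regions 61.5%, against 43.7% for all distal regions, and its part in the motif counts was not tested. Letters that match a motif do not show that a factor binds there.

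Of 42 other genes of the pathway, 28 had a promoter peak in all 6 libraries (66.7%), 10 in 1 to 5 and 4 in none, against 45.6% and 39.3% of protein-coding genes with a peak in all and in none. Among 28 other bZIP genes, 16 were called in all 6 libraries, and JDP2, MAF, CEBPE and NFE2 in none. JDP2 encodes a repressor that pairs with JUN, and NFE2 an erythroid factor. IRF4, a partner of BATF, was called in all 6 libraries with a mean −log10 q of 13.9, and IRF8 in 5 with 5.50. Of 12 kinases and factors upstream of AP-1, 11 were called in all 6 libraries, and MAPK3 in 3. The highest means in the list were those of ATF2 (73.7), which pairs with JUN, the JNK kinase gene MAPK10 (61.1), CREB1 (50.5) and CREM (46.6), all above JUN. A promoter peak was assigned to every gene with a start within 1 kb, so a neighbour can share it.

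**Figure D3:**
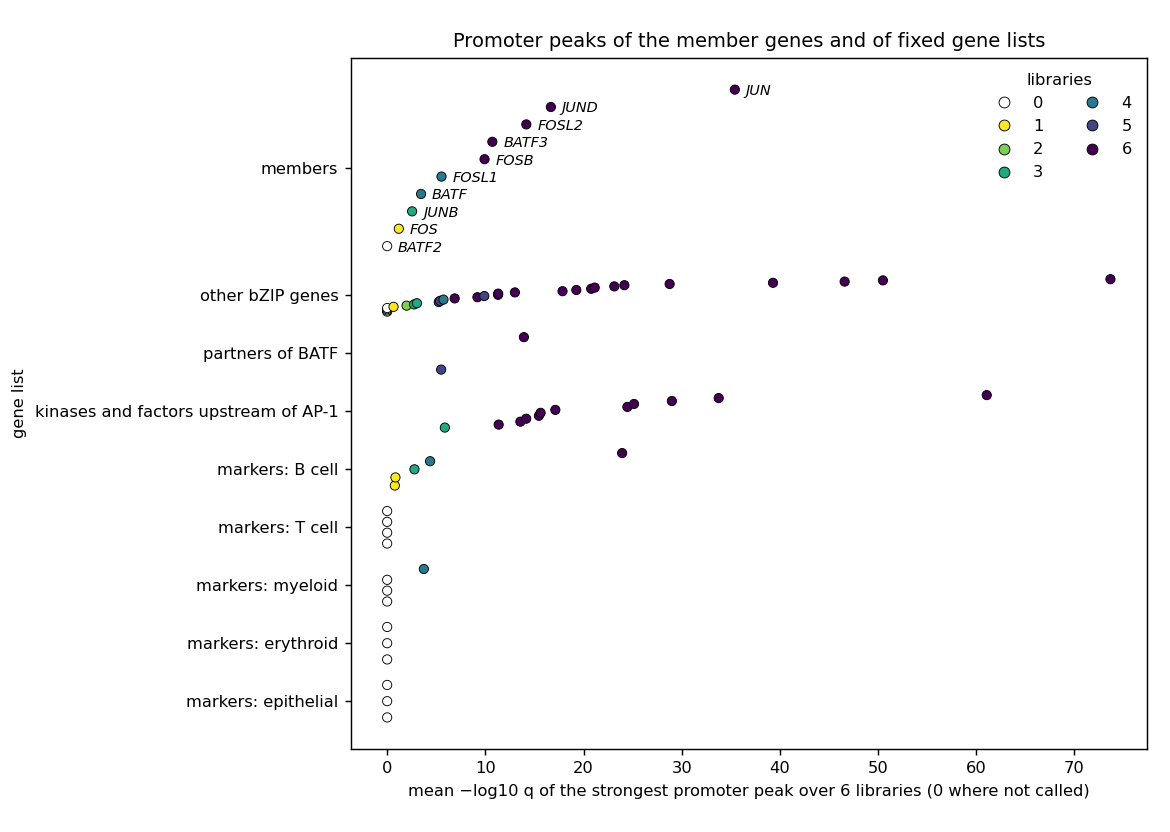
Promoter peaks of the 10 members, of 3 lists of other genes of the pathway and of 5 lists of cell type markers. The x axis gives the mean −log10 q of the strongest promoter peak over 6 libraries, with 0 for a library without a call; each point is a gene, coloured by the number of libraries that called it, and the vertical offset within a list only separates points. JUN stands apart from the other members, and ATF2 and MAPK10 lie to the right of it.

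Between protocols, the reads at the summit were compared with limma on log2 reads, over the 20064 regions called in all 6 libraries and with Benjamini-Hochberg adjustment over all of them. None of the 10 member regions tested was called at an adjusted p under 0.05 in any of the 3 comparisons, and neither was any of the 20064 regions (0.0% each). At an unadjusted p under 0.05 there were 1539 regions for the purified new buffer against the old buffer, 947 for the unpurified against the purified new buffer, and 1480 for the unpurified libraries against the old buffer. The log2 differences of the member regions lay between -0.33 and 0.50, between -0.37 and 0.40, and between -0.29 and 0.79, in the same order. The test was tried on simulated reads for the comparisons that involve the unpurified libraries. There it recovered at most 1% of 200 regions changed 2-fold and at least 82% of those changed 3-fold. The spread of the simulated reads was not fitted to the libraries, so these shares hold for the simulation only. The absence of calls alone does not show that 2-fold changes were absent. Among the 95% intervals of the member regions, 2-fold was reached only at the CCDC85B promoter, unpurified against old buffer (0.35 to 1.23). These intervals were not adjusted for the number of regions.

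The largest difference was at the promoter of CCDC85B in the FOSL1 window, with 16 and 13 reads in the old-buffer libraries, 21 and 19 in the purified and 30 and 23 in the unpurified new-buffer libraries. The 3 protocols did not overlap there, a pattern that was not counted over all regions. The unpurified libraries exceeded the old-buffer libraries by 0.79 on the log2 scale (SE 0.20, 95% interval 0.35 to 1.23, limma adjusted p = 0.603), and the purified ones exceeded them by 0.50 (SE 0.20, limma adjusted p = 0.631). On the fold enrichment in place of the reads, these differences were 0.35 and 0.23. The background at this summit was 3.68 and 2.40 reads with the old buffer and 4.06 and 5.28 in the unpurified libraries. At the promoter of FOSL2 the unpurified libraries exceeded the purified ones by 0.40 (SE 0.21, 95% interval -0.06 to 0.86, limma adjusted p = 1), and by 0.22 without replicate 2 of the purified new buffer.

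At the promoter of JUN the log2 difference was 0.00 for the purified new buffer against the old buffer, with a 95% interval of -0.47 to 0.47, and 0.01 in the other 2 comparisons. At the intronic region of BATF3 the interval for the unpurified against the old-buffer libraries was -0.51 to 0.58. After centring each library on its median, the libraries of both protocols did not overlap in 4 of the 10 regions for the purified new buffer against the old buffer (3 higher, 1 lower), against 21.6% higher and 15.7% lower over all regions. For the unpurified against the purified new buffer it was 4 regions (2 higher, 2 lower), against 16.6% and 14.9%, and for the unpurified libraries against the old buffer 3 (1 higher, 2 lower), against 22.5% and 14.6%.

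**Figure D4:**
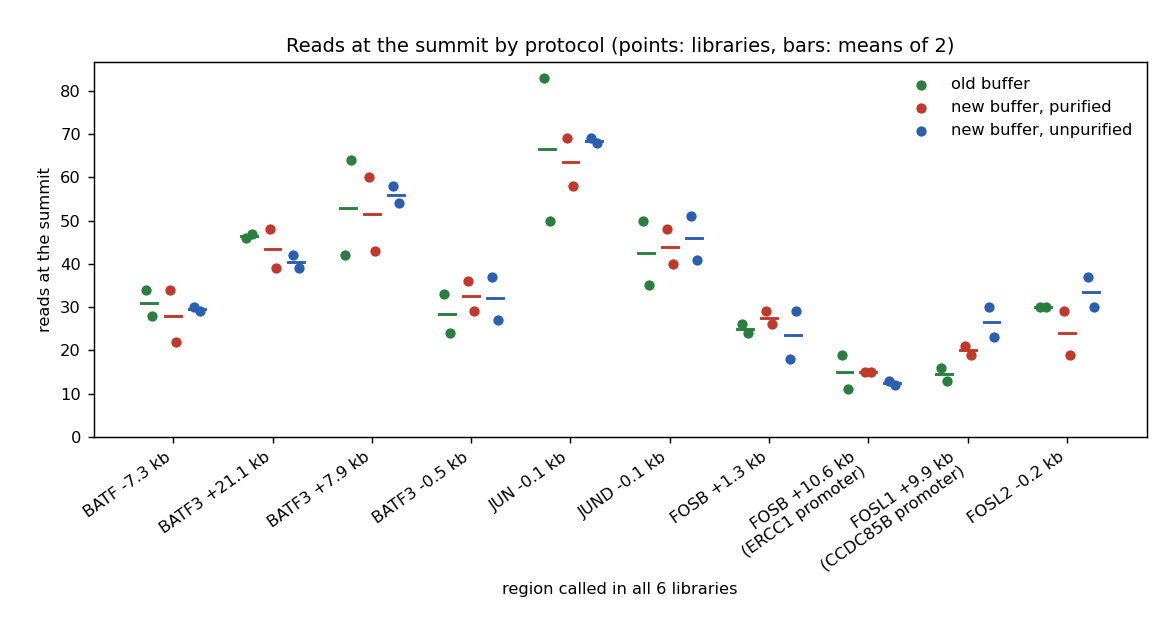
Reads at the summit in the 10 member regions called in all 6 libraries, by protocol. The y axis gives reads, points are libraries and bars are the means of 2 libraries. The promoter of JUN is highest with 50 to 83 reads. The 3 protocols separate without overlap at the CCDC85B promoter in the FOSL1 window, a pattern that was not counted over all regions.

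Covered length was compared per gene with an exact two-sided permutation test over libraries, whose smallest p is 0.333 for 2 libraries against 2. For the purified new buffer against the old buffer, BATF3 and JUNB were higher without overlap, 2 of 10 members. The 10 include BATF2, which had no covered base and could not differ. Of 15651 genes with any covered base, 19.4% were above and 9.62% below. In BATF3 peaks covered 2427 and 2100 bp with the old buffer, 3265 and 2502 bp with the purified and 2532 and 2465 bp with the unpurified new buffer. In JUNB they covered 681 and 953 bp, 1129 and 1101 bp, and 1427 and 983 bp, in the same order. Both genes were thus higher in all 4 new-buffer libraries than in both old-buffer libraries (p = 0.333 for each protocol, exact permutation test). Of the 15651 genes, 26.6% were higher without overlap in the unpurified than in the old-buffer libraries, and the joint pattern was not counted over all genes.

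For the unpurified against the purified new buffer, JUND, FOSL1 and FOSL2 were higher without overlap, against 17.4% of genes above and 10.5% below. JUND had 1315 and 988 bp with the old buffer, 727 and 1192 bp with the purified and 1851 and 1387 bp with the unpurified new buffer. FOSL1 had 660 and 550 bp, 647 and 521 bp, and 1226 and 868 bp, and FOSL2 704 and 524 bp, 403 and 563 bp, and 765 and 577 bp. The lengths of FOSL1 include peaks at the promoters of CCDC85B and FIBP. In replicate 2 of the old buffer and of the purified new buffer, which had no peak at the FOSL1 promoter, they come from these neighbours alone. Between the unpurified and the old-buffer libraries, BATF3, JUNB, JUND and FOSL1 were higher without overlap, against 26.6% above and 8.01% below, and no member was lower. Over all members and comparisons the exact permutation p lay between 0.333 and 1. The unpurified libraries also had the highest backgrounds at their lowest, 1.76 and 1.86 reads, against 1.51 to 1.74 in the others, and the part of this depth in the covered length was not tested.

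**Figure D5:**
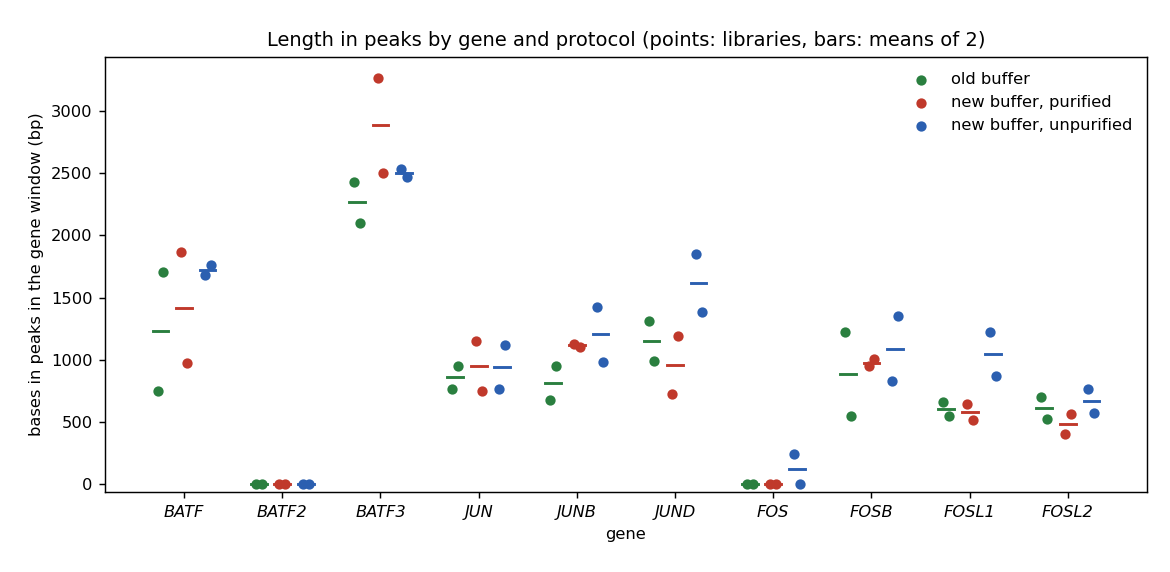
Bases in peaks in the window of each member gene, by protocol. The y axis gives bp, points are libraries and bars are the means of 2 libraries. BATF3 is highest with 2100 to 3265 bp and BATF2 is at 0 in all 6 libraries. JUND and FOSL1 are higher in both unpurified libraries than in the other 4, a pattern that was not counted over all genes. The FOSL1 window includes peaks at the promoters of CCDC85B and FIBP.

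Regions called in both libraries of a protocol and in neither of another were few. The distal region of JUND 8989 bp upstream (chr19:18401189-18401583) was called in both unpurified and in no purified new-buffer library, 1 of 25 member regions called in these 4 libraries, against 2.7% of all regions. It was also called in replicate 2 of the old buffer. The promoter of JUNB and the distal region of BATF3 16419 bp from the start (chr1:212856601-212857025) were called in both unpurified and in no old-buffer library, 2 of 24, against 2.4%. Each of them was also called in 1 purified new-buffer library. In the other 4 directions no member region was specific, against 1.83% of all regions for the purified new buffer over the old buffer, 3.2% for the reverse, 1.76% for the purified over the unpurified new buffer and 2.82% for the old buffer over the unpurified new buffer. The 3 regions held between 13 and 31 reads where they were called, and the patterns of calls were not tested.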

How the data were processed

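Peaks of 6 bulk ATAC-seq libraries of GM12878 were analysed, 2 for each of 3 protocols, grouped by the sample labels. The authors mapped trimmed reads to hg19 with Bowtie2 2.1.0, kept proper pairs with a mapping quality above 30, and discarded duplicates (Picard 1.79) and reads of the mitochondrial genome. MACS2 in narrow mode then called peaks at a q of 0.01, and its version is not given in the sources used here. Although the methods speak of merging reads of a condition before this step, each library has its own list. Each deposited peak has a score (the integer part of 10 times its −log10 q) and a ratio, the fold enrichment at the summit relative to local background. The significance at the summit is deposited as −log10 p and, after MACS2's correction, as −log10 q. Duplicates had been removed before peak calling. The methods do not say whether both reads of a pair count at a summit. No interval here covers more than counting error and the spread between libraries.

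The members and gene lists were chosen with earlier results of these data known. All peaks were kept, merged into regions where they overlapped or adjoined, and a library called a region with at least 1 bp in its peaks. Summit reads were solved from the fold enrichment and the Poisson p, exact within 0.001 in −log10 p for 100% of peaks. log2 reads were centred on the median of each library and tested with limma 3.58.1 in R 4.3.3 over all 6 libraries, with protocol as the only term. The test was also run on simulated reads with 200 changed regions. At 3-fold it made 9 false calls among 20064 regions. For each member the text gives the strongest promoter and the strongest distal region in every library, the other regions by range, member regions specific to a protocol, the neighbouring promoters, pathway genes without a call and the 4 strongest of that list. The position of printed sequences comes from GRCh37, which is the same build as hg19, and those chosen for print were picked after the values were seen. Beyond those given, 1 more cell type marker and 1 more sequence are not reported here. Replicate numbers were not used to pair the libraries in the main test. Also used were samtools 1.23.1, pandas 2.3.3, SciPy 1.17.1 and NumPy 2.4.6 under Python 3.11.15. Alternatives were a −log10 q of at least 5, the 30136 strongest peaks of every library, other windows, promoter widths and rules for overlap and merging, other scalings, a block for the replicate number, and each replicate left out in turn.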

Additional observations from a re-analysis of the deposited data

How the results depend on the processing

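With each replicate left out in turn, 24 to 26 member regions were found, of which 10 to 12 were called in every remaining library, 5 members had a promoter called in all of them, and the mean of the median promoter rank was 41.5% to 45.8%. Where the peaks of a library had to cover at least 0.5 of a region to call it, 5 in place of 10 member regions were called in all 6 libraries. The number of protocol-specific member regions, 3, rested on having 2 libraries per protocol and on the peak lists. It was 7 with an equal number of peaks per library and 6 where 0.5 of a region had to be covered. Without 1 replicate, where a single library stands for its protocol, it was 8 and 10 without replicate 1 and 2 of the old buffer, 13 and 6 for the purified and 5 and 8 for the unpurified new buffer, a range of 5 to 13. The AP-1 letters occurred in 5 of 26 member regions when the whole region was searched, against 23.2% of all regions. In the comparisons of summit reads, 0 regions were called under the replicate block and under each of the other 10 alternatives in all 3 comparisons, and at an unadjusted p under 0.05 there were between 830 and 1560 regions. Deviations of libraries with the same replicate number were not correlated (-0.00417, 0.0146 and -0.00264). At summits of so few reads, this does not show that such libraries had separate origins. Other widths of the promoter leave the number of member regions as it is by construction and were applied to the promoter counts only. The covered length was not recomputed under other settings. Summits of 20 to 22 reads limit what differences between 2 libraries and 2 can show.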
